A study of Mus musculus with 8 samples.

Results

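Protein arginine methyltransferases other than Prmt5 were followed in mouse embryonic stem cells that had lost most of their Prmt5 transcript, to ask whether any of them was higher in its absence. The 8 genes were chosen by symbol: Prmt1, Prmt2, Prmt3, Carm1, Prmt6, Prmt7, Prmt8 and Prmt10, the older symbol that the tables use for Prmt9. All 8 were found, as 8 of 38991 genes, and each had 1 row per library. RNA of 8 libraries was sequenced, 4 of the control genotype iPHet and 4 of the Prmt5 knockout iPKO. By its name iPHet is heterozygous, and none of the 8 libraries is named as wild type. A change already present in iPHet would therefore not be seen. The cells were C57BL/6, taken from blastocysts of embryonic day 3.5, derived on fibroblast feeders with 0.5 µM of the inhibitor PD0325901 and LIF, below passage 20 and moved to 2i ground state medium. Cells of both genotypes received 2 µM 4-hydroxytamoxifen for 48 hours and then fresh 2i medium, so the control carried the same drug exposure. The labels name 1 male line per genotype for most experiments, PC1 for iPHet and PC4 for iPKO, so genotype and line cannot be told apart. They do not name the recombinase or its driver, nor separate cultures for the libraries of a genotype, so the spread behind every p-value is that between these libraries and may be technical.

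Protein arginine methyltransferases move methyl groups from S-adenosylmethionine onto arginine side chains of histones, RNA-binding proteins and other proteins. Type I enzymes (PRMT1, PRMT2, PRMT3, CARM1, PRMT6 and PRMT8) make asymmetric dimethylarginine, type II enzymes (PRMT5 and PRMT9) make symmetric dimethylarginine, and PRMT7, the type III enzyme, stops at monomethylarginine. In embryonic stem cells PRMT1 is the main source of the asymmetric mark and CARM1 is known as a coactivator of pluripotency genes. PRMT5 methylates the Sm proteins of the spliceosome, and PRMT9 a splicing factor.

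The members covered a wide range of levels, and the start regions of the most and the least abundant member are shown because the latter was the richer in CpG. Promoter windows of 250 bases before and 50 after the start came from RefSeq (GRCm38.p6, the same assembly as the mm10 of the tables), and 7 of the 8 members had one. The window of Prmt1 is chr7:44986371-44986670 and that of Prmt8, at the first of its starts listed, chr6:127769106-127769405, both on the minus strand. They are printed 5′ to 3′ with every CG dinucleotide in capitals.
Prmt1: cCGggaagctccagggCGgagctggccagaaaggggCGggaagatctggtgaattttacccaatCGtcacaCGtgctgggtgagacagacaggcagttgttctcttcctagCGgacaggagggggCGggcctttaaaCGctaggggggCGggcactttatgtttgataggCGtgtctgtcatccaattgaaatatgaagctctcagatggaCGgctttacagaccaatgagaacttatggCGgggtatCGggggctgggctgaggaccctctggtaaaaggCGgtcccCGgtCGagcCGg
Prmt8: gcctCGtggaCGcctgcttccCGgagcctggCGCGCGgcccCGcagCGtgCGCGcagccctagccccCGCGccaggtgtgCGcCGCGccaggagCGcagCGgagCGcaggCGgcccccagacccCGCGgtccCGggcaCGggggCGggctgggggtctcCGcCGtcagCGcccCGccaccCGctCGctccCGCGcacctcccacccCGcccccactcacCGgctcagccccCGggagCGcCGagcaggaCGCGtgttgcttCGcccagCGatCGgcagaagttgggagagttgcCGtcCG
The Prmt1 window held 17 CG dinucleotides and the Prmt8 window 44, counted by the letters CG, which read the same on both strands. Across all 32851 windows of this length the median was 7, and 97.8% of them held fewer than Prmt8. The other 5 windows held from 16 (Prmt6) to 39 (Prmt7). Prmt8, listed at 0.172 FPKM on average, thus had the most CG-rich window of the 7 and the lowest level of the 8. FPKM is the number of fragments divided by transcript length and by the total of the library, so levels of different genes can be set side by side.

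Prmt5 itself checked the labels. It was 52.8, 70.8, 54.3 and 72.2 FPKM in iPHet 1 to 4 and 11.8, 14.5, 12.4 and 15.0 FPKM in iPKO 1 to 4. Every knockout library lay below every control library, at 21.5% of the control mean, and the fall was called (limma adjusted p = 0.000171). Averaging the libraries that resemble each other, as described next, ended that call (limma adjusted p = 0.191, or 0.0809 with an odd/even term). It held with an estimated correlation within those libraries (limma adjusted p = 0.00204), and the log2 change was -2.13 in each of these fits. In the fit of all 8 libraries without a covariate 0 of its 4 cofactor genes were called, beside 15.8% of all tested genes. In iPHet and iPKO, Wdr77 was at 140.6 ± 11.7 and 122 ± 14.4 FPKM and Clns1a at 92.4 ± 8.20 and 93.1 ± 15.1 FPKM. Riok1 was at 16.4 ± 1.64 and 15.2 ± 0.724 FPKM and Coprs at 10.7 ± 1.78 and 9.50 ± 1.48 FPKM (all SD, each n = 4). Wdr77, Clns1a and Riok1 share exon bases with neighbouring genes. In bulk RNA, fewer cells with a transcript and less of it per cell cannot be told apart.

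The libraries of a genotype did not scatter evenly. Libraries 1 and 3 resembled each other, and so did 2 and 4: over 8171 protein-coding genes averaging 5 FPKM or more the SD of the log2 difference was 0.164 to 0.185 within these pairs and 0.379 to 0.416 across them. The labels give no reason for this, and the 7 tested members are therefore also given by odd and by even number. FPKM summed to between 411827 and 458856 per library, and the absolute depth is unknown. All 10 embryonic stem cell markers were above 1 FPKM, with a summed level of 2318 to 3819 FPKM in iPHet and 2748 to 3001 FPKM in iPKO. Pou5f1 averaged 297.5 and 260.3 FPKM and Nanog 313 and 319 FPKM in the 2 genotypes. Of 10 feeder fibroblast markers 2 reached 1 FPKM, Postn and Lum were at 0 in all 8 libraries, and the sum was 2.01 to 3.504 FPKM in iPHet and 1.93 to 4.58 FPKM in iPKO. The sums of 6 primitive endoderm markers were 4.58 to 5.22 and 2.94 to 4.61 FPKM, and those of 6 trophoblast markers 1.61 to 4.02 and 2.42 to 8.14 FPKM. The part of these cell types in the results was not tested.

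The order of the mean levels over the 8 libraries was Prmt1, Prmt3, Carm1, Prmt7, Prmt6, Prmt10, Prmt2 and Prmt8, from 104 to 0.172 FPKM. Prmt1 exceeded Prmt3, the next member, in 8 of 8 libraries, by 62.3 ± 13.1 FPKM (SD of the differences). The next 3 were not separated: Prmt3 exceeded Carm1 by 7.45 ± 9.58 FPKM and Carm1 exceeded Prmt7 by 4.42 ± 5.68 FPKM, each in 6 of 8 libraries. Prmt3 was above Carm1 in 4 of 4 iPKO but 2 of 4 iPHet libraries, and Carm1 above Prmt7 in 4 of 4 iPHet but 2 of 4 iPKO libraries. Prmt7 exceeded Prmt6 by 17.97 ± 3.46 FPKM in 8 of 8 libraries. Prmt6 lay 5.10 ± 2.12 FPKM above Prmt10 in 8 of 8 libraries, while Prmt10 lay 2.00 ± 1.94 FPKM above Prmt2 in 7 of 8 and Prmt2 above Prmt8 in 8 of 8. Among all tested genes Prmt1 ranked above 94.7%, Prmt3 above 84.0%, Prmt6 above 53.6% and Prmt2 above 31.2%.

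**Figure D1:**
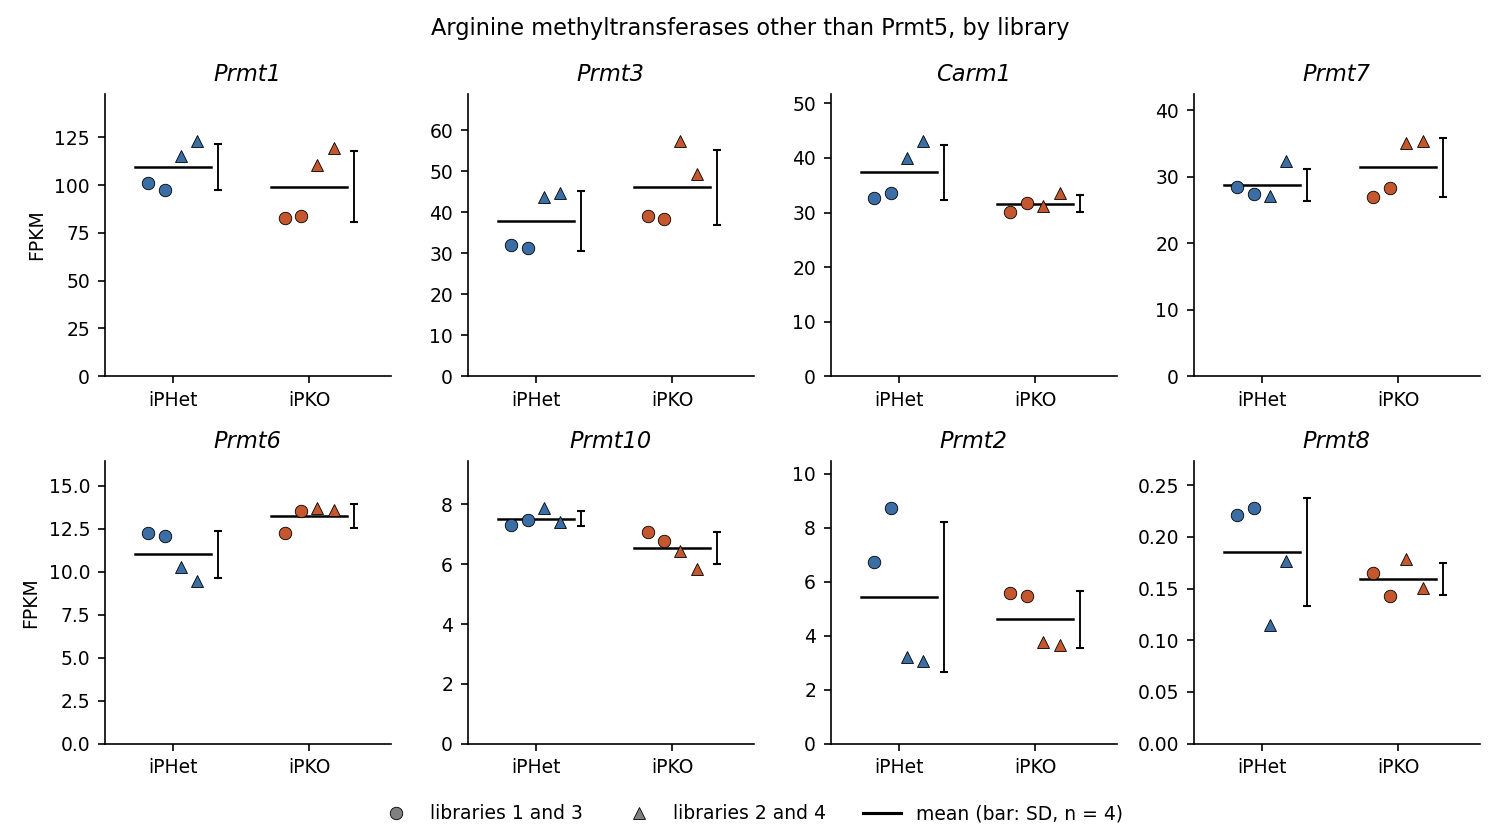
FPKM of the 8 members (vertical axes start at 0, one scale per gene) in the 4 iPHet and 4 iPKO libraries, with circles for libraries 1 and 3, triangles for 2 and 4, and the mean with its SD. Prmt6 and Prmt10 are the members whose genotypes do not overlap, beside 25.1% of all tested genes, and for Prmt6 the gap is narrow. The even-numbered libraries of Prmt3 lie above the odd-numbered ones in both genotypes.

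Between the genotypes 0 of the 7 tested members were called by limma at an adjusted p under 0.05 in the fit of all 8 libraries, where 15.8% of the 12462 tested genes were (6.3% higher and 9.53% lower in iPKO). At an unadjusted p under 0.05 there were 3 of 7 members, Prmt6, Prmt10 and Carm1, beside 3921 of all genes. Changes were taken on the log2(FPKM + 1) scale for genes averaging 1 FPKM or more in iPHet or in iPKO, a limit that Prmt8 missed. The members' median change was -0.12 and the median of its size 0.18, beside -0.04 and 0.19 for all tested genes. With the replicate number as a block 1 member, Prmt3, was called, beside 27.5% of all genes. With like libraries averaged (1 with 3 and 2 with 4) 0 members were called, without or with an odd/even term, beside 7 and 6 genes in all.

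Among the type I enzymes, Prmt1, the most abundant member (ENSMUSG00000052429, chromosome 7, 44975989 to 44986492 of mm10), was 101, 115, 97.7 and 123 FPKM in iPHet 1 to 4 and 83.05, 111, 83.6 and 119.6 FPKM in iPKO 1 to 4. The groups overlapped, and each knockout library was below the control library of its number. The means of 109 ± 12.1 and 99.2 ± 18.8 FPKM (SD; each n = 4) gave a log2 change of -0.15 with a 95% interval of -0.48 to 0.17 (limma adjusted p = 0.505). The knockout was at 0.839 of the control by the odd numbers, without overlap, and at 0.965 by the even ones, with overlap.

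Prmt3, a cytoplasmic enzyme that methylates a protein of the small ribosomal subunit (ENSMUSG00000030505, chromosome 7, 49778346 to 49858265), was 32.0, 43.6, 31.3 and 44.7 FPKM in iPHet 1 to 4. In iPKO 1 to 4 it was 39.2, 57.4, 38.3 and 49.4 FPKM. Over all libraries the genotypes overlapped, since the even-numbered controls lay above the odd-numbered knockouts. Within the odd-numbered and within the even-numbered libraries every knockout lay above every control, by 1.22-fold and 1.21-fold. The log2 change was 0.28 (SE 0.17), with a limma adjusted p = 0.31 without the block and 0.0219 with it, so that Prmt3 rose only in the latter of these 2 fits. The interval was -0.12 to 0.67 without the block and 0.14 to 0.41 with it. With like libraries averaged and an odd/even term the adjusted p was 0.334 and the interval -0.02 to 0.57. In iPHet 1 and iPHet 3, the odd-numbered controls, the deposited FPKM lay just below the lower confidence bound deposited beside it. At the midpoints of the bounds the log2 change was 0.21. Its limma adjusted p was 0.39, or 0.0295 with the block, a fit in which 30.4% of all genes were called.

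Such separation within both the odd and the even numbers was common: 42.6% of all tested genes had it in 1 direction, and so did 4 of the 8 members, Prmt3, Carm1, Prmt6 and Prmt10. As a share of the summed FPKM of the 8 members, Prmt3 took 15.8 ± 1.68% in iPHet and 19.7 ± 1.73% in iPKO (SD; each n = 4). Prmt3 shares 223 exon bases with Gm44822 and Gm26856. Gm26856, a noncoding gene on the other strand, was 0.763 ± 0.133 and 0.916 ± 0.253 FPKM (SD; each n = 4).

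Carm1, the coactivator-associated enzyme (ENSMUSG00000032185, chromosome 9, 21546894 to 21589487), was 32.7, 40.0, 33.6 and 43.2 FPKM in iPHet 1 to 4 and 30.1, 31.1, 31.8 and 33.6 FPKM in iPKO 1 to 4. The highest knockout library, iPKO 4, lay above iPHet 1 and just under iPHet 3, so the groups met at their edges. Without iPHet 1 or without iPKO 4 they did not overlap. The log2 change of -0.22 (SE 0.10) had a 95% interval of -0.45 to -0.005 and was not called (limma adjusted p = 0.151, or 0.0653 with the block). The exact permutation test, two-sided, gave p = 0.0571 for 4 against 4 libraries, where 0.0286 is the smallest possible. The knockout stood at 0.932 of the control in the odd-numbered libraries and at 0.778 in the even-numbered ones.

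The Carm1 values carried a limit of their own. In 8 of 8 libraries the deposited FPKM lay above the upper confidence bound deposited beside it, at 1.35 to 1.47 times the midpoint of the bounds. At these midpoints Carm1 was 26.8 ± 4.08 FPKM in iPHet against 22.02 ± 1.42 FPKM in iPKO (SD; each n = 4). The midpoints gave a log2 change of -0.26 and a limma adjusted p of 0.128, or 0.0443 with the block, a fit in which 30.4% of all genes were called. The Carm1 model also shares 1025 exon bases with Yipf2 on the other strand. Yipf2 was 11.4 ± 1.61 FPKM in iPHet against 7.87 ± 0.412 FPKM in iPKO (SD; each n = 4, limma adjusted p = 0.0161). Its part in the Carm1 values was not tested.

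Prmt6, a nuclear enzyme that methylates histone H3 (ENSMUSG00000049300, chromosome 3, 110246109 to 110250998), was 12.22, 10.3, 12.1 and 9.45 FPKM in iPHet 1 to 4. In iPKO 1 to 4 it was 12.23, 13.7, 13.5 and 13.6 FPKM. The groups did not overlap, by the width of the gap between iPHet 1 and iPKO 1. Of all tested genes 25.1% had no overlap, and of the 8 members 2 had none, Prmt6 and Prmt10. The means of 11 ± 1.37 and 13.3 ± 0.689 FPKM (SD; each n = 4) gave an exact two-sided permutation p = 0.0286, the smallest possible. On the log2 scale the change of 0.25 (95% interval 0.05 to 0.46) was not called, at a limma adjusted p of 0.0959, or 0.109 with the block.

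The excess of Prmt6 in the knockout was uneven, 1.06-fold by the odd and 1.39-fold by the even numbers. The control means by odd and even number were 12.2 and 9.85 FPKM and the knockout means 12.9 and 13.6 FPKM. Scaling each library by its median ratio raised the change to 0.31 and brought it under the threshold (limma adjusted p = 0.0453). Values were divided by factors of 1.008 to 1.034 in the iPHet libraries and 0.976 to 0.988 in the iPKO libraries. The scaling thus raised the knockout against the control for every gene. That scaling also moved the split of all called genes from 785 higher and 1188 lower to 1013 higher and 830 lower. Prmt6 shares 984 exon bases with the antisense transcript C130013H08Rik, which was not analysed here.

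Prmt2, a weakly active enzyme with an SH3 domain (ENSMUSG00000020230, chromosome 10, 76207222 to 76237865), varied most among the tested members, with a coefficient of variation of 39.6% over the 8 libraries. It was 6.74, 3.21, 8.72 and 3.08 FPKM in iPHet 1 to 4 and 5.57, 3.76, 5.45 and 3.64 FPKM in iPKO 1 to 4. The odd-numbered libraries were high and the even-numbered ones low in both genotypes, the reverse of Prmt1 and Prmt3. Even-numbered libraries held 0.517 times as much Prmt2 as odd-numbered ones, but 1.28 times as much Prmt1 and 1.39 times as much Prmt3. The knockout stood at 0.713 of the control among odd-numbered libraries and at 1.18 among even-numbered ones, with no overlap in either. Over all libraries the log2 change of -0.12 had a 95% interval of -0.80 to 0.57 (limma adjusted p = 0.827). Whether the odd and even ratios differ was not tested. The microRNA gene Mir678 shares exon bases with Prmt2.

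Prmt8, a membrane-bound enzyme known from the brain (ENSMUSG00000030350, chromosome 6, 127689011 to 127769472), was near the floor in all libraries. It was 0.222, 0.115, 0.228 and 0.176 FPKM in iPHet 1 to 4 and 0.165, 0.178, 0.143 and 0.151 FPKM in iPKO 1 to 4. The groups overlapped, and the means gave p = 0.4 in the exact permutation test (two-sided). Its model shares 233 exon bases with the antisense gene Gm42738. Of 8 neuron markers 6 were below 1 FPKM as well, while Stmn2 averaged 143 and 104 FPKM (iPHet, iPKO) and Map2 4.46 ± 0.678 and 2.33 ± 0.757 FPKM (SD; each n = 4). Of the 3 neuron markers tested 1 was called in the fit of all 8 libraries, beside 15.8% of all tested genes. The neuron markers summed to 130.8 to 167 FPKM in the controls and 87.9 to 128 FPKM in the knockouts, and their part in the Prmt8 values was not tested.

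Prmt10 encodes PRMT9, the other type II enzyme (ENSMUSG00000037134, chromosome 8, 77549397 to 77581338). It was 7.31, 7.88, 7.47 and 7.42 FPKM in iPHet 1 to 4 and 7.08, 6.43, 6.77 and 5.85 FPKM in iPKO 1 to 4. Every knockout library lay below every control library. The means were 7.52 ± 0.248 and 6.53 ± 0.529 FPKM (SD; each n = 4), with an exact two-sided permutation p = 0.0286. That is the smallest p possible for 4 against 4 libraries and restates the lack of overlap, which 25.1% of all tested genes shared. The test also takes like libraries as independent. The log2 change of -0.18 (95% interval -0.34 to -0.02) was not called, at a limma adjusted p of 0.121, or 0.0969 with the block. The knockout stood at 0.937 of the control by the odd numbers and at 0.803 by the even ones. After median ratio scaling or quantile normalization the Prmt10 groups overlapped, and those of Prmt6 did not. Prmt10 shares no exon bases with another annotated gene, and in 8 of 8 libraries its FPKM lay inside its bounds.

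Prmt7, the monomethylating enzyme (ENSMUSG00000060098, chromosome 8, 106210936 to 106252794), was 28.4, 27.1, 27.3 and 32.3 FPKM in iPHet 1 to 4 and 26.9, 35.0, 28.2 and 35.4 FPKM in iPKO 1 to 4. The even-numbered knockouts were the highest of the 8 libraries, while iPKO 3 lay among the controls and iPKO 1 just below all of them. The knockout stood at 0.989 of the control by the odd numbers and at 1.18 by the even ones. The log2 change was 0.11 (95% interval -0.13 to 0.36, limma adjusted p = 0.514, or 0.331 with the block). Like Carm1, Prmt7 lay above its upper bound in 8 of 8 libraries, at 1.11 to 1.19 times the midpoint, and the midpoints averaged 25.7 ± 2.30 FPKM in iPHet against 26.9 ± 3.95 FPKM in iPKO (SD; each n = 4). By midpoints Carm1 stood below Prmt7 in all 4 iPKO libraries and in iPHet 1 and 3. Prmt7 shares 268 exon bases with 2 genes of the other strand, Gm26786 and Smpd3, and Smpd3 was at 0.103 and 0.0201 FPKM.

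**Figure D2:**
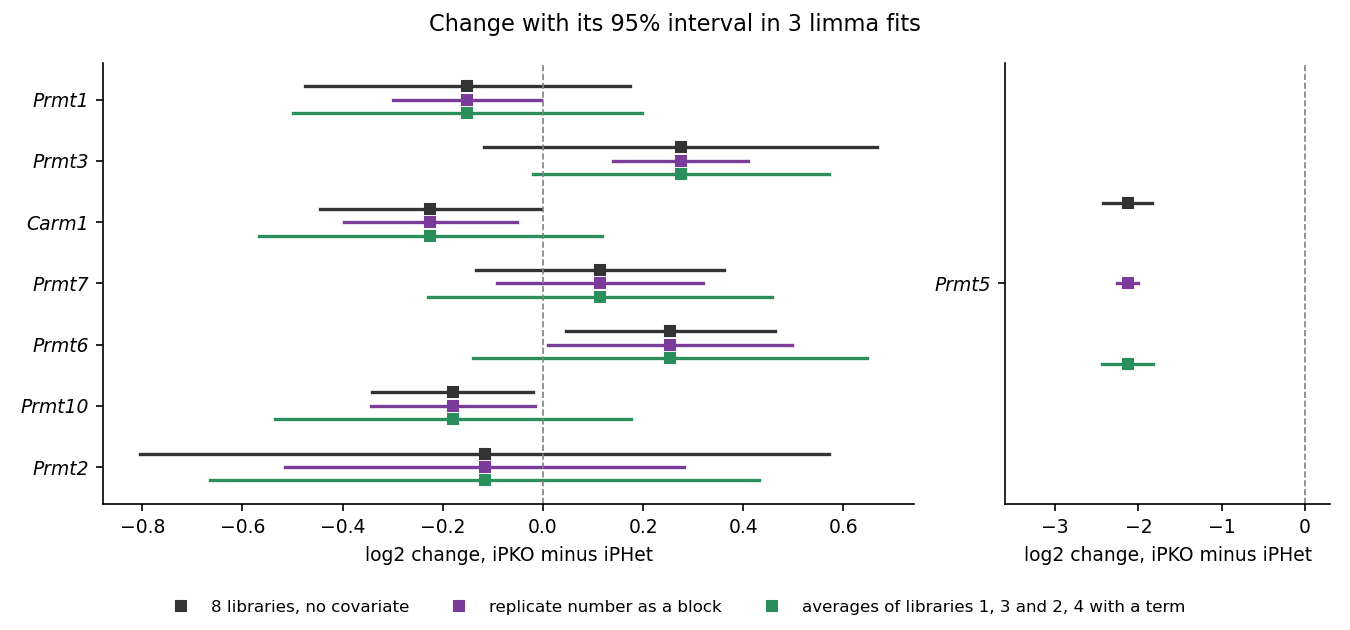
Log2 change, iPKO minus iPHet, on the log2(FPKM + 1) scale (horizontal axes) with its 95% interval for the 7 tested members and for Prmt5, in 3 limma fits. All 3 intervals of Prmt5 lie below -1.8, while the highest upper end of any member in the fit without a covariate is 0.67, that of Prmt3.

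The intervals show how large a gain each fit allowed for the 7 tested members, given a spread between libraries that may be technical. The fit of 8 libraries takes all of them as independent, while the correlation estimated within like libraries was 0.839. On the scale of FPKM + 1, the upper ends in the fit of 8 libraries were 1.13-fold for Prmt1, 1.49-fold for Prmt2, 1.59-fold for Prmt3, 1.38-fold for Prmt6 and 1.29-fold for Prmt7. For Carm1 and Prmt10 the whole interval lay below equality, with upper ends of 0.997 and 0.987. With like libraries averaged and an odd/even term the upper ends were 1.15-fold for Prmt1, 1.49-fold for Prmt3, 1.57-fold for Prmt6, 1.09-fold for Carm1 and 1.13-fold for Prmt10, so that the last 2 then reached past equality. With averages and no term they were wider, up to 1.88-fold for Prmt3 and 1.92-fold for Prmt2.

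Set against the loss of Prmt5 in FPKM, the differences of the members were small. Prmt5 fell by 49.1 FPKM, while Prmt3 was 8.20, Prmt7 2.60 and Prmt6 2.25 FPKM higher on average. The differences of those lower in iPKO, knockout minus control, were -10.1 FPKM for Prmt1, -5.73 for Carm1, -0.986 for Prmt10, -0.834 for Prmt2 and -0.026 for Prmt8. The 8 members together were 238 ± 21.9 FPKM in iPHet against 233 ± 31.1 FPKM in iPKO (SD; each n = 4), a difference of -4.65 FPKM inside the spread of either group. Its sign was not stable: the difference was 4.32 FPKM with median ratio scaling and 5.18 FPKM with quantile normalization, and from -14.1 FPKM without iPKO 4 to 4.90 FPKM without iPKO 1. Prmt1 made up 46.0% of the summed members in iPHet and 42.4% in iPKO on average. Without Prmt1 the sum was 128 ± 9.86 FPKM in iPHet against 134 ± 13.0 FPKM in iPKO (SD; each n = 4). These groups overlapped, and each knockout library was above the control library of its number. Both sums hold Carm1 and Prmt7 at FPKM values above their upper bounds. The share of Prmt5 in the sum of all 9 genes went from 20.7 ± 1.37% to 5.46 ± 0.136% (SD; each n = 4). Of the summed FPKM of the type II genes Prmt5 and Prmt10, the knockout kept 28.5%, with 60.1 to 79.7 FPKM in iPHet and 18.9 to 20.9 FPKM in iPKO. Within that sum Prmt10 made up 10.9 ± 1.46% in iPHet and 32.9 ± 4.30% in iPKO (SD; each n = 4), although its own level was lower in iPKO.

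**Figure D3:**
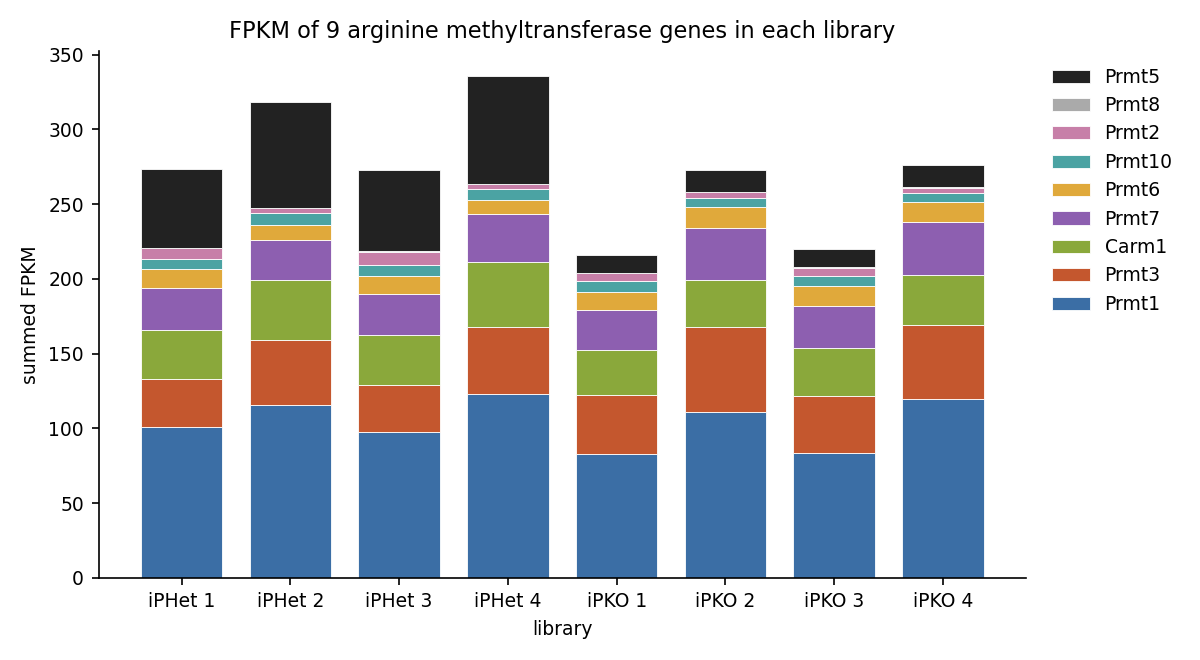
Summed FPKM (vertical axis, from 0) of Prmt5 and the 8 members in each library, stacked by gene. The 8 members reach 218 to 264 FPKM in the 4 iPHet libraries and 204 to 261 FPKM in the 4 iPKO libraries, and the black Prmt5 block at the top takes 20.7% of the column on average in iPHet and 5.46% in iPKO.

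Across the 8 libraries some members varied in the same direction and others in opposite ones. Pearson correlations of log2(FPKM + 1) between pairs of tested members ran from -0.89 for Carm1 with Prmt6 to 0.78 for Prmt3 with Prmt7. They describe 8 libraries that share 2 genotypes and the odd/even pattern. The genes most like each member by the same measure, among 8580 genes averaging 5 FPKM or more, were Ruvbl1 and Tfap4 for Prmt1 (r = 0.988 both), Actr10 and Ctsl for Prmt2 (0.986 both) and Pex13 and Rbbp4 for Prmt3 (0.98 both). For Carm1 they were Zfp330 and Abhd17a (0.994 and 0.993), for Prmt6 Gm25596 and Exoc7 (0.982 and 0.973), for Prmt7 Gne and Wiz (0.943 and 0.938) and for Prmt10 Usp49 and Appl1 (0.99 and 0.982). Gm25596 varied widely, from 0 to 18.4 FPKM in iPHet and from 14.1 to 82.3 FPKM in iPKO. These genes were picked as the highest of 8580 over 8 libraries, so their correlations are no test.

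Genes that act on or around protein arginine methylation were counted in 5 lists with 64 genes, of which 56 were tested. Of these 1 rose, 9 fell and 46 were not called, or 17.9% called beside 15.8% of all genes. Their median log2 change was -0.04, the same as that of all tested genes. With the block 18 were called, 5 higher and 13 lower, beside 27.5% of all genes. With like libraries averaged, without or with an odd/even term, or with an estimated correlation within them, 0 were called.

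Proteins rich in arginine and glycine, which are methylated mainly by PRMT1, had 5 of 21 members called, all lower. That is 23.8%, beside 9.53% of all genes lower and 15.8% called in either direction. The median log2 change of the list was -0.12. The list was chosen with earlier results of these data known, so these shares are no test. None of these calls was made with like libraries averaged or with an estimated correlation within them. Taf15, an RNA-binding protein found in TFIID, fell from 42.5 ± 9.64 to 18.1 ± 2.12 FPKM (SD; each n = 4, limma adjusted p = 0.00364). Its control libraries spanned 33.3 to 52.6 FPKM and its knockout libraries 14.9 to 19.4 FPKM, without overlap. Chtop, which binds PRMT1 and takes part in mRNA export, fell from 79 ± 5.27 to 63.2 ± 2.67 FPKM, Serbp1, another RNA-binding protein, from 41.4 ± 3.09 to 31.6 ± 3.07 FPKM and Pabpn1, the nuclear poly(A)-binding protein, from 143.6 ± 4.53 to 120.2 ± 8.25 FPKM (SD; each n = 4). The call of Serbp1 ended on leaving out iPHet 2, iPHet 4, iPKO 1 or iPKO 3 (limma adjusted p up to 0.0595), and that of Pabpn1 on leaving out any single library except iPKO 3 (up to 0.0842). Serbp1 shares exon bases with Il12rb2 and Pabpn1 with Gm20521. The fifth gene, Hnrnpk, named after its values were seen, lost its call under the block (limma adjusted p = 0.0415 before and 0.0686 under it). Of 11 substrates of CARM1 0 were called, beside 15.8% of all genes. Smarcc1, a subunit of the BAF complex with the smallest p of them, was 89.4 ± 14 and 69.6 ± 6.77 FPKM (SD; each n = 4, limma adjusted p = 0.09, or 0.0117 with the block).

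Of 11 tested modulators of these enzymes and enzymes acting on arginine or methylarginine 2 fell and 0 rose (18.2%, beside 15.8% of all genes called). Padi4, which converts arginine in histones to citrulline, fell from 8.84 ± 0.588 to 5.43 ± 0.760 FPKM (SD; each n = 4, limma adjusted p = 0.00575). Ddah1, which breaks down free asymmetric dimethylarginine, fell from 4.30 ± 0.152 to 3.20 ± 0.335 FPKM (SD; each n = 4), a call that ended without any single library except iPHet 2 or iPKO 4 (limma adjusted p up to 0.0689). Tudor domain proteins, some of which read methylated arginine, had 7 of 13 genes tested, with 1 higher and 2 lower, beside 6.3% and 9.53% of all genes. Smndc1, a splicing factor related to SMN, rose from 35.4 ± 1.18 to 55.4 ± 9.89 FPKM (SD; each n = 4, limma adjusted p = 0.0124). Tdrd12, of the piRNA pathway, fell to 0.581 of the control mean, and Snd1, a reader of symmetric arginine methylation, fell from 50.5 ± 7.30 to 37.1 ± 1.62 FPKM (SD; each n = 4). The Snd1 call ended on leaving out any 1 library but iPHet 2 (limma adjusted p up to 0.0728). Of the 6 genes of the Prmt5 complex list, which also holds Prdm1 and Prdm14, 0 were called, beside 15.8% of all genes. With the block 1 was called, higher (Prdm1, named after its value was seen), beside 27.5% of all genes called in either direction.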

How the data were processed

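The authors deposited 1 FPKM value for each gene in each of the 8 libraries, beside its confidence limits and a status, per the file headers. Trimmomatic and mm10 are named in the submitters' processing notes. What aligned the reads, what computed FPKM and whether strand was used is not given in the sources used here, so reads of overlapping genes can be exchanged. Between 21.7% and 29.1% of rows of at least 1 FPKM lay outside their own limits.

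Rows were summed for 19 of 38991 identifiers found in several rows. Values were log2(FPKM + 1). The 12462 genes averaging 1 FPKM or more in iPHet or in iPKO were fitted with limma 3.58.1 (trend on mean level, R 4.3.3), all 8 libraries, no covariate, and called at a Benjamini-Hochberg adjusted p under 0.05. The verbs rose and fell stand only for such calls. Exact permutation tests used scipy 1.17.1. The fit without a covariate was tested on simulated data with independent libraries, which lack the odd/even pattern seen here. The other fits were not simulated. Coordinates, gene types and overlaps came from GENCODE vM21, which held 96% of the identifiers and Prmt1 by its symbol only. Depth is unknown, since the tables hold no counts.

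The labels number the libraries 1 to 4 in both genotypes. Deviations from the mean of each genotype correlated at 0.104 to 0.204 between equal numbers, all over 0.1. On the data alone, the numbers were therefore taken as pairs in the fits with the replicate block. The fit without a covariate takes no pairs. Between iPHet and iPKO libraries of unequal numbers, both odd or both even, the range was 0.077 to 0.124. It overlapped that of equal numbers, and between odd and even numbers the range was -0.205 to -0.058. A pairing by number was thus not told apart from the odd/even pattern. The members and lists were chosen with earlier results of these data known. Named were all members, Prmt5, its 4 cofactors, of each related list up to 4 called genes of smallest p or else the 1 of smallest p, the 2 genes most like each member, and the markers Map2, Pou5f1 and Nanog. Other pseudocounts, filters, scalings, covariates, averages and left-out libraries were tried, with the effects given in the closing section.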

Additional observations from a re-analysis of the deposited data

Results flagged for a closer look

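In the knockout group of Prmt6, iPKO 1 stood apart from the other libraries. It was at 12.2 FPKM, the next library at 13.5 FPKM and the highest at 13.7 FPKM, so that the gap to the nearest was 0.867 of the whole range of the group. Among 26 groups of 4 libraries looked at (8 members, Prmt5 and its 4 cofactors in both genotypes) this was the only one past the limit. Chance passes about 1 in 20 groups of 4 independent values. Like libraries are not independent, so that rate need not hold here.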

How the results depend on the processing

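The count of called genes, 1973, was 3427 with the replicate block, 4729 with an odd/even term, 7 with like libraries averaged, 6 with these averages and the term, 52 with an estimated correlation within like libraries and 1264 to 1416 with 1 library left out (1264 without iPHet 4 and 1309 without iPKO 1). The settings chosen after seeing the data gave 3721 (midpoint of the bounds with the replicate block), 192 (protein-coding averages with the term), 5700 (odd-numbered libraries only) and 4932 (even-numbered only). Members called were 0 of 7 in the fit of all 8 libraries, beside 15.8% of all tested genes. With the block 1 was called (Prmt3, beside 27.5% of all genes). With the odd/even term 4 were (Prmt3, Prmt6, Carm1 and Prmt10, beside 37.9%). By midpoints with the block 2 were (Prmt3 and Carm1, beside 30.4%). In odd-numbered libraries 2 were called (Prmt3 and Prmt1, beside 45.4%) and in even-numbered ones 3 (Prmt6, Carm1 and Prmt10, beside 40.2%). Median ratio scaling gave 1 (Prmt6, beside 14.8%). Leaving out any 1 library gave 0. The odd-only and even-only fits treat like libraries as replicates. Members without overlap, 2 of 8 over all libraries beside 25.1% of all tested genes, were 1 with median ratio scaling or quantile normalization. They were 2 to 3 with 1 library left out.

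Related genes called, 10 of 56, were 18 with the replicate block or by midpoints with the block, 22 with the odd/even term, 0 with averages, with averages and the term or with an estimated correlation, 1 in protein-coding averages with the term, 31 and 19 in odd-numbered and even-numbered libraries, and 5 to 8 with 1 library left out (5 without iPHet 4 or iPKO 1, 6 without iPHet 1, iPHet 3 or iPKO 3). The direction reversed for Prmt2 in even-numbered libraries (0.18) and without iPHet 1 or 3 (0.0062 and 0.12, range -0.30 to 0.12 over single libraries left out), and for Prmt7 in odd-numbered libraries (-0.015). The difference in the summed FPKM of the 8 members, -4.65, was positive with median ratio scaling (4.32), quantile normalization (5.18) and without iPHet 4 (4.04), iPKO 1 (4.90) or iPKO 3 (3.75), and ran from -14.1 to 4.90 over single libraries left out. The cause of these changes was not tested. The number of libraries and their likeness in pairs limit the precision.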
